A study of Mus musculus with 12 samples.

Results

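The transforming growth factor (TGF)β and bone morphogenetic protein (BMP) receptors measured here were 9 genes of the 18193 that the array annotation names: the type II receptors Tgfbr2, Acvr2a, Acvr2b and Bmpr2, the type I receptors Tgfbr1, Acvr1 and Bmpr1a, and the co-receptors Tgfbr3 and Eng. They were taken as every probe set, a group of short DNA probes read together as 1 value, whose annotated symbol was exactly 1 of these names, which gave 27 of 45037 probe sets. For each gene the probe set with the highest mean over the 12 arrays led, and the others are given beside it. All 9 leading probe sets and 25 of the 27 probe sets passed the filter on low signal, which kept a probe set if 3 or more of the 12 arrays showed it brighter than their median.

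The samples were murine CGR8 embryonic stem cells, a feeder-free line, and the cells derived from it, at 4 stages with 3 arrays each. ES-LIF(+) cells were kept with leukemia inhibitory factor (LIF), the cytokine that holds stem cells undifferentiated, and ES-LIF(-) cells had spent 48 h without it, both in 7.5% serum. Cardiopoietic cells (CP) and cardiomyocytes (CM) came from stem cells stimulated with a growth factor cocktail that itself held 5 ng/ml BMP and 2.5 ng/ml TGFβ beside interleukins, IGF1, VEGF, EGF and FGF. CP were then kept in 3% serum with 30 ng/ml tumor necrosis factor α for 5 days, and CM in 20% serum for 9 days, so that stage, time, serum and cytokines changed together and cannot be told apart. The derived cells were purified on Percoll density gradients. All stages came from 1 line.

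Ligands of this family bind a pair of type II and a pair of type I receptors. The type II receptor is a constitutively active kinase that phosphorylates the type I receptor, which in turn phosphorylates receptor SMADs, and these join SMAD4 and enter the nucleus. Tgfbr2 with Tgfbr1 (ALK5) carries TGFβ signals to SMAD2 and SMAD3, Bmpr2 and the activin type II receptors with Bmpr1a (ALK3) or Acvr1 (ALK2) carry BMP signals to SMAD1, SMAD5 and SMAD8, and Acvr2a and Acvr2b also bind activins and Nodal. Tgfbr3 (betaglycan) and Eng (endoglin) are membrane proteins without a kinase that present ligands to these receptors. In the heart, the pathway is known for its part in mesoderm induction, in the formation of the cushions that become valves and septa, and in the growth of the myocardial wall.

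Receptor transcripts differed between the stem cells and the differentiated stages. On their leading probe sets, Tgfbr2, Tgfbr3, Acvr1, Bmpr2 and Eng were higher in both CP and CM than in ES-LIF(+). In CP the difference was 15.5-fold for Tgfbr2, 9.36-fold for Tgfbr3 and 1.69-fold for Eng. The Eng calls were lost when arrays were centred on their medians or when its probe sets were averaged. Acvr2b was lower in CM, by 2.85-fold. The leading probe sets of Tgfbr1, Acvr2a and Bmpr1a stayed within 1.5-fold of ES-LIF(+) at every stage. Tgfbr2 and Tgfbr3 reached their highest signal in CP and were lower in CM. The leading probe set of Bmpr2 was 1.51-fold higher in CM than in CP, just above the 1.5-fold used for calls.

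To show the start regions of the genes that rose together, the 250 bases upstream of the annotated start are printed for the 4 genes called higher in both CP and CM that had a sequence in the RefSeq promoter table (GRCm38.p6). Each is given 5′ to 3′ on the strand of the gene, with capitals marking GC boxes (GGGCGG or its reverse complement) and CCAAT boxes (CCAAT or its reverse complement), where neighboring matches may overlap. They lie at chr9:116175364-116175613 (minus strand) for Tgfbr2, chr1:59764029-59764278 (plus strand) for Bmpr2, chr2:58566829-58567078 (minus strand) for Acvr1 and chr2:32646345-32646594 (plus strand) for Eng.
Tgfbr2: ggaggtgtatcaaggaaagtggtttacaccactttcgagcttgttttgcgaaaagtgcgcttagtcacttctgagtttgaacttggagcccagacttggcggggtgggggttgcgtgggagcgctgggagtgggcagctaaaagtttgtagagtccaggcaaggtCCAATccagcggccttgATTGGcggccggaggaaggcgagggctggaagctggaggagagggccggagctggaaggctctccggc
Bmpr2: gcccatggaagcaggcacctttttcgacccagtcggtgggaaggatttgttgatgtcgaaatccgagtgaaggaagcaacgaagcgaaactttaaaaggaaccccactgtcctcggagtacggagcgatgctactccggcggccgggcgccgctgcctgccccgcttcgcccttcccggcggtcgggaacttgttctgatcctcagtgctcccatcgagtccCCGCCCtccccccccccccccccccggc
Acvr1: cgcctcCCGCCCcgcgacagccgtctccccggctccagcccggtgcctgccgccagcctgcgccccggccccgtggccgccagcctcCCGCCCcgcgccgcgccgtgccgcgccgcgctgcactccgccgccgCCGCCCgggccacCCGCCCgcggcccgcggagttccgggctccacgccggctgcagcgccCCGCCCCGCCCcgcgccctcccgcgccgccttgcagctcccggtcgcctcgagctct
Eng: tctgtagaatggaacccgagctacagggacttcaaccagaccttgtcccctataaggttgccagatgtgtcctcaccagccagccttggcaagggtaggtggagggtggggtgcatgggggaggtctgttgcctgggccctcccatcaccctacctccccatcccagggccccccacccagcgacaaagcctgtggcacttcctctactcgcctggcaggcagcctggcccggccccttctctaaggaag
The 4 windows differed in their letters. The Acvr1 window held 6 GC boxes and 46 CpG dinucleotides, and the Bmpr2 window held 1 GC box and 22 CpG. The Tgfbr2 window held 2 CCAAT boxes in opposite orientation, 12 CpG and no GC box. The Eng window held neither motif and 4 CpG. Over 32851 promoters of the same length in the table, 32.7% held a GC box, 33.8% a CCAAT box and 12.4% the TATA box letters TATAAA, none of which were in these 4 windows, and the median promoter held 6 CpG. Of the genes whose leading probe set was not called higher, the windows of Acvr2a (49 CpG), Acvr2b (24), Bmpr1a (36) and the first of Tgfbr1 (29) lay above that median, and a second Tgfbr1 window (3) lay below it, as did Eng. These matches are a description of the letters.

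The arrays were scaled to a trimmed mean signal of 500 each, and their median signals ran from 101 to 111 in the 6 stem cell samples and from 128 to 144 in CP and CM. Log2 medians were thus 0.28 higher in CP and 0.32 higher in CM than in ES-LIF(+), and centring the arrays on their medians takes that amount off every difference with the stem cells. Marker genes bore out the stage names in part. The summed signal of 7 pluripotency genes was 61743 to 63547 in ES-LIF(+), 33828 to 38899 in ES-LIF(-), 36358 to 37594 in CP and 8727 to 11449 in CM, and that of 7 cardiomyocyte genes was 488 to 707 in ES-LIF(+), 1659 to 1871 in CP and 96214 to 111292 in CM. CP samples had only 3 of the 7 cardiomyocyte genes above the array median on all 3 arrays, while 8 fibroblast and mesenchyme genes summed to 94352 to 100839, against 1052 to 1474 in ES-LIF(+) and 50420 to 51520 in CM. One CM sample, replicate 3, stood apart in embryonic globins, with Hbb-bh1 at 7947 against 424 and 1812 in the other CM samples, and without it the counts of receptor genes called in CM were the same (5 higher and 1 lower). In such bulk RNA, fewer cells of a type and less RNA per cell cannot be told apart.

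Across the 4 stages, 7 of the 9 receptor genes changed by limma's moderated F test at a Benjamini-Hochberg adjusted p under 0.05, where 73.1% of all 13145 tested genes did. A gene was called higher or lower between stages at an adjusted p under 0.05 and a difference above 1.5-fold. In CP against ES-LIF(+), 5 of 9 receptor genes were higher, against 18.7% of all genes, and 0 were lower, against 13.3%, and the median log2 difference of the 9 was 0.76, that of all genes 0.04. In CM against ES-LIF(+), the same 5 were higher, against 25.7% of all genes, and 1 was lower, against 23.9%, with medians of 0.66 and 0.06. Both comparisons share the ES-LIF(+) arrays. Centred on array medians, the split was 4 higher and 1 lower in both CP and CM, beside 12.1% higher and 27.4% lower of all genes in CP and 17.4% and 35.1% in CM.

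**Figure D1:**
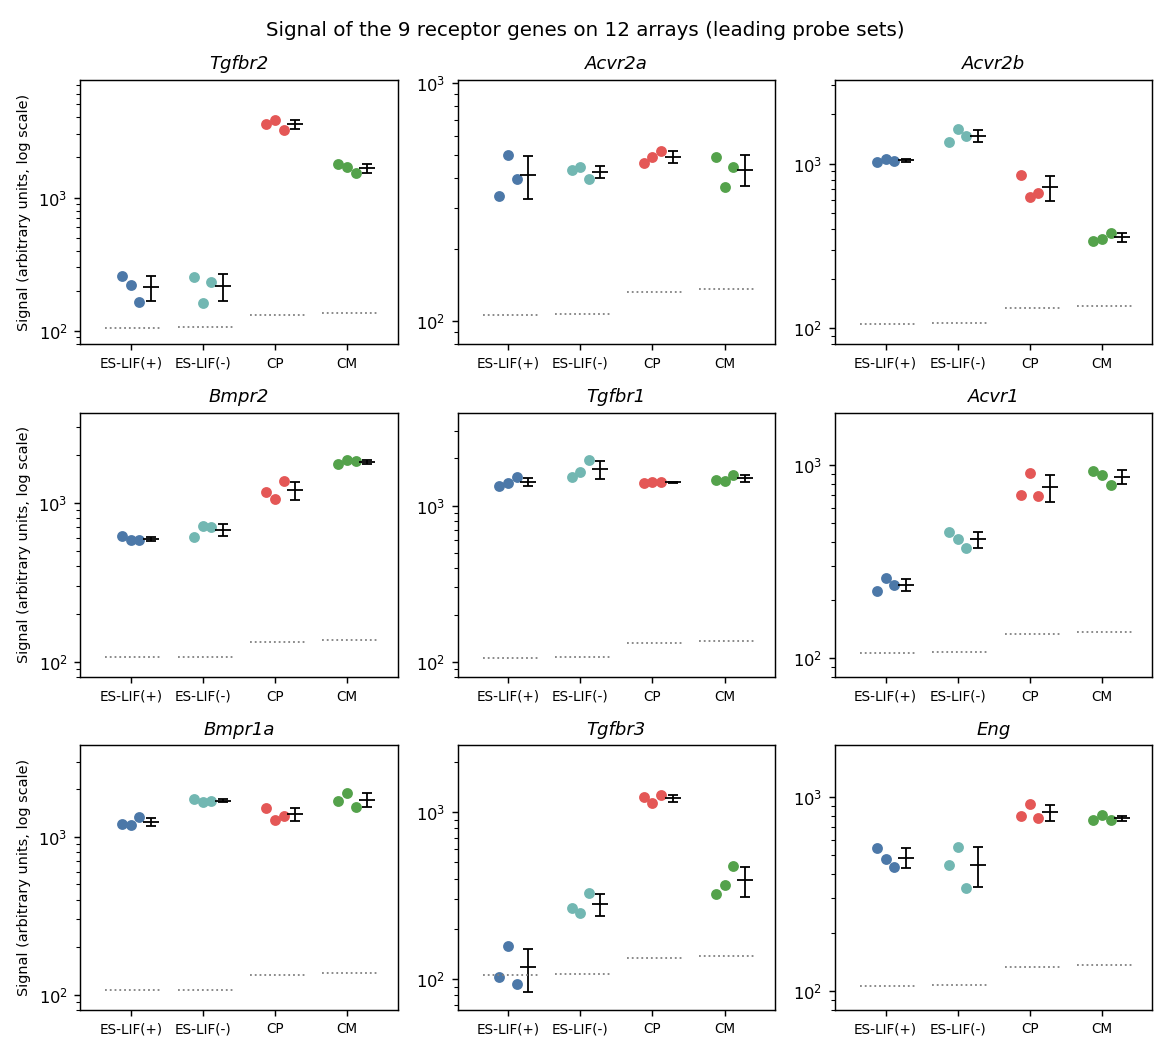
Signal (arbitrary units, log axis) of the leading probe set of each receptor gene on the 3 arrays of each stage. Points are arrays, the black bar and whiskers are the mean and SD of 3, and the dotted line is the mean of the arrays' median signals. Tgfbr2 and Tgfbr3 peak in CP, Acvr2b falls to 340 to 380 in CM, and Tgfbr1 stays between 1339 and 1967.

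Among the type II receptors, Tgfbr2, the receptor that binds TGFβ itself, had the largest differences of the 9 leading probe sets in CP and CM against the stem cells. Its signal was 258, 221 and 167 in ES-LIF(+) and 256, 163 and 233 in ES-LIF(-), then 3565, 3810 and 3229 in CP and 1787, 1686 and 1527 in CM. Stem cells of both kinds overlapped, every CP sample lay above every CM sample, and all 6 differentiated samples lay far above the stem cells. The log2 difference was 3.96 ± 0.16 (SE, n = 3 arrays a stage) in CP (limma, Benjamini-Hochberg adjusted p = 9.67e-11) and 2.88 ± 0.16 in CM (adjusted p = 1.21e-09) against ES-LIF(+). CM lay 2.11-fold below CP, with a log2 difference of -1.08 (adjusted p = 0.000141). ES-LIF(-) differed from ES-LIF(+) by 0.01 (adjusted p = 0.981).

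Tgfbr2 had 2 further probe sets. The signal of 1425444_a_at was below the array median in all 6 stem cell samples, 658 to 839 in CP and 382 to 492 in CM. Only CP and CM samples brought it through the filter on low signal, so that it could not come out lower there than in the stem cells. Against the medians of the ES-LIF(+) arrays, in place of its own signals of background size there, it was at least 6.46-fold higher in CP and at least 3.66-fold higher in CM, and limma's adjusted p against ES-LIF(+) was 4.89e-10 and 1.21e-09. It too was lower in CM than in CP (log2 difference -0.82, adjusted p = 0.0182). The third, 1422019_at, was under the median on all 12 arrays and was not tested. With the log2 values averaged over all 3, the drop from CP to CM was -0.34 (adjusted p = 0.199) and no longer passed.

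Bmpr2, the type II receptor particular to BMPs, rose from the stem cells to CP and, on its leading probe set, again to CM. Its signal was 615, 586 and 581 in ES-LIF(+), 605, 717 and 708 in ES-LIF(-), 1166, 1059 and 1364 in CP, and 1747, 1848 and 1821 in CM. The stem cell stages overlapped, and the CP samples lay between them and the CM samples without touching either. The log2 difference from ES-LIF(+) was 0.98 ± 0.10 in CP (limma, adjusted p = 2.27e-06) and 1.58 ± 0.10 in CM (adjusted p = 5.54e-09). CM exceeded CP by 1.51-fold, a log2 difference of 0.59 (adjusted p = 0.000451) that sits just above the fold threshold and fell inside it without CP replicate 1 (0.58), without CP replicate 2 (0.51) or without CM replicate 2 (0.58). A second probe set, 1419616_at, lay below the array median in all stem cell samples. It read 175 to 258 in CP (at least 1.98-fold) and 296 to 348 in CM (at least 2.72-fold). Only CP and CM samples brought it through the filter on low signal, so that it could not come out lower there than in the stem cells. Its difference between CM and CP was not called (0.46, adjusted p = 0.332), nor was that of the mean over probe sets (0.56, adjusted p = 0.167). The third, 1441652_at, ran from 16 to 217 across the 12 arrays and was not called.

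Acvr2b, which binds activins, Nodal and related ligands, went the other way. Its signal was 1029, 1067 and 1046 in ES-LIF(+), 1355, 1621 and 1467 in ES-LIF(-), 854, 630 and 669 in CP, and 340, 351 and 380 in CM. No 2 stages overlapped, and the order of the stages was ES-LIF(-), ES-LIF(+), CP and CM. In CM it was lower than in ES-LIF(+) by a log2 difference of -1.51 ± 0.12 (limma, adjusted p = 2.92e-08) and lower than in CP by -0.96 (adjusted p = 1.69e-05). The fall to CP was -0.55 (adjusted p = 0.00128), 1.46-fold and so inside the fold threshold, and it passed at -0.68 without CP replicate 1, at -0.61 after quantile normalization and at -0.83 after median centring. The gain on LIF withdrawal was 0.49 (adjusted p = 0.0124), 1.4-fold and also inside the threshold.

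A second Acvr2b probe set, 1439856_at, was lower in CM too (-0.73 against ES-LIF(+), adjusted p = 0.000397, and -0.95 against CP, adjusted p = 0.000124), but stood at 0.22 in CP against ES-LIF(+) (adjusted p = 0.227). The third, 1440525_at, swung between 23 and 255 and was not called against ES-LIF(+), but was called higher in CP against ES-LIF(-) (1.78, adjusted p = 0.0154), opposite to the leading probe set. The fall in CM was thus seen by 2 of 3 probe sets and the lower signal in CP by the leading one alone.

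Acvr2a, the other activin type II receptor, had no called difference on its leading probe set. Its signal was 335, 498 and 395 in ES-LIF(+), 433, 444 and 395 in ES-LIF(-), 460, 488 and 516 in CP, and 491, 364 and 444 in CM. ES-LIF(+) and CM each overlapped every other stage, while the CP samples lay just above the ES-LIF(-) samples, and the F test gave an adjusted p of 0.44. The log2 difference from ES-LIF(+) was 0.26 ± 0.15 in CP (limma, adjusted p = 0.177) and 0.09 ± 0.15 in CM (adjusted p = 0.65). Its second probe set, 1451004_at, was called higher in CP by 0.62 (adjusted p = 0.0379) and stood at 0.58 in CM (adjusted p = 0.0404), inside the fold threshold. A further probe set that names both Orc4 and Acvr2a was left out.

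Among the type I receptors, Acvr1 was the only one whose leading probe set was called. Its signal was 223, 259 and 239 in ES-LIF(+), 452, 414 and 372 in ES-LIF(-), 702, 909 and 689 in CP, and 934, 889 and 791 in CM. The increase started on LIF withdrawal, with no overlap between the stem cell stages, and CP and CM overlapped. The log2 difference from ES-LIF(+) was 0.74 ± 0.13 in ES-LIF(-) (limma, adjusted p = 0.00202), 1.6 ± 0.13, or 3.03-fold, in CP (adjusted p = 2.22e-07) and 1.79 ± 0.13 in CM (adjusted p = 2.14e-08), and CM differed from CP by 0.19 (adjusted p = 0.316).

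The other Acvr1 probe sets bore this out only in part. 1416786_at rose by 1.43 in CP (adjusted p = 1.66e-05) and 1.74 in CM (adjusted p = 9.94e-07), but stood at 0.07 in ES-LIF(-) (adjusted p = 0.87). 1416787_at was not called at any stage against ES-LIF(+) and was 0.56 below it in CM on the log2 scale (adjusted p = 0.0307), inside the fold threshold. The early increase in ES-LIF(-) therefore rests on the leading probe set, and 2 of 3 probe sets rose in CP and CM.

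Tgfbr1, the type I partner of Tgfbr2, gave a split reading. The leading probe set, 1420895_at, read 1339, 1398 and 1517 in ES-LIF(+), 1528, 1634 and 1967 in ES-LIF(-), 1390, 1407 and 1418 in CP, and 1463, 1443 and 1578 in CM. CP and CM each overlapped ES-LIF(+), the log2 differences were -0.01 ± 0.09 in CP (limma, adjusted p = 0.933) and 0.08 ± 0.09 in CM (adjusted p = 0.512), and the F test gave 0.0588. Both other probe sets were called higher in CP and CM. 1420893_a_at rose by 1.52 in CP (adjusted p = 0.0191) and 1.64 in CM (adjusted p = 0.00941), from 39 to 172 in ES-LIF(+), and 1420894_at by 1.14 (adjusted p = 0.0229) and 1.62 (adjusted p = 0.00171), from 52 to 141. Their stem cell signals lay around the array medians, so these folds are less precise, and averaging the 3 probe sets turned Tgfbr1 from flat to 0.88 in CP and 1.11 in CM. Which part of the transcript each probe set reads was not examined.

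Bmpr1a, a main type I receptor for BMP2 and BMP4, varied within narrow bounds. Its leading signal was 1208, 1197 and 1330 in ES-LIF(+), 1726, 1652 and 1694 in ES-LIF(-), 1531, 1282 and 1362 in CP, and 1686, 1901 and 1552 in CM. ES-LIF(+) was the lowest stage, overlapped by CP alone. The differences passed on p but stayed inside 1.5-fold, at 0.44 in ES-LIF(-) (limma, adjusted p = 0.0061) and 0.45 in CM (adjusted p = 0.000626), and CP stood at 0.16 (adjusted p = 0.183). Of its 5 other probe sets, 3 were called higher in both CP (0.66 to 0.83) and CM (0.69 to 0.77), 1425493_at was called in CM alone (0.60) with 0.54 in CP, and 1445413_at was under the median on every array and not tested. All 5 tested probe sets of Bmpr1a thus stood above ES-LIF(+) in CP and CM, by amounts on either side of the threshold. For the leading probe set in CP this did not hold under median centring, since its 0.16 is less than the 0.28 that centring takes off.

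The leading probe sets of both co-receptors were called higher in both differentiated stages. Tgfbr3, which presents TGFβ2 and inhibins, read 103, 157 and 93 in ES-LIF(+), where 1 of 3 arrays lay above the array median, then 267, 248 and 327 in ES-LIF(-), 1231, 1139 and 1261 in CP, and 325, 367 and 478 in CM. CP stood well above every other sample, and CM overlapped ES-LIF(-) by 1 pair of arrays. The log2 difference from ES-LIF(+) was 1.17 ± 0.19 in ES-LIF(-) (limma, adjusted p = 0.000871), 3.23 ± 0.19 in CP (adjusted p = 4.77e-09) and 1.61 ± 0.19 in CM (adjusted p = 2.74e-06). CM was 3.06-fold lower than CP (log2 difference -1.61, adjusted p = 1.32e-05) and did not pass against ES-LIF(-) (0.44, adjusted p = 0.0546).

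The second Tgfbr3 probe set, 1425620_at, rose in CP (1.52, adjusted p = 5.68e-05) and CM (0.92, adjusted p = 0.00232). On LIF withdrawal it was called lower (-0.73, adjusted p = 0.0479), opposite to the leading probe set, with all 3 ES-LIF(-) signals below the array median. The drop from CP to CM was -0.60 on this probe set (adjusted p = 0.055). The CP peak was thus common to both probe sets, and the direction on LIF withdrawal was not.

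Eng, the endoglin gene, known as a co-receptor of endothelial and mesenchymal cells, changed least of the 5 genes that rose. Its signal was 549, 477 and 437 in ES-LIF(+), 449, 549 and 341 in ES-LIF(-), 797, 923 and 779 in CP, and 759, 804 and 762 in CM. Stem cell samples and differentiated samples did not overlap, and CP and CM did. The log2 difference from ES-LIF(+) was 0.76 ± 0.15 in CP (limma, adjusted p = 0.000738) and 0.66 ± 0.15 in CM (adjusted p = 0.00143). Both are near the 1.5-fold threshold, and under median centring the values were 0.47 (adjusted p = 0.0229) and 0.34 (adjusted p = 0.0813). Without ES-LIF(+) replicate 3 the CM value was 0.58, just inside the threshold, and after quantile normalization it was 0.50. Averaged over both probe sets, Eng stood at 0.56 in CP (adjusted p = 0.0279) and 0.43 in CM (adjusted p = 0.067), and neither was called. The second probe set, 1432176_a_at, stood at 0.36 in CP (adjusted p = 0.329) and 0.20 in CM (adjusted p = 0.57) and was not called against ES-LIF(+). Against ES-LIF(-) it was called higher in CP (0.75, adjusted p = 0.0435) and stood at 0.59 in CM (adjusted p = 0.0913).

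Over 8 endothelial markers, the summed signal was 1415 to 2167 in ES-LIF(+), 969 to 1188 in ES-LIF(-), 1361 to 1604 in CP and 2033 to 2625 in CM. Of the 8, 4 lay above the array median on all arrays in ES-LIF(+), 4 in ES-LIF(-), 3 in CP and 6 in CM. Single markers moved in both directions. Of 6 tested against ES-LIF(+), 2 were higher and 2 lower in CP, where 18.7% and 13.3% of all genes were. In CM 3 were higher and 2 lower, where 25.7% and 23.9% of all genes were. Over 5 smooth muscle markers the summed signal was 3607 to 4773 in ES-LIF(+), 29225 to 33326 in CP and 64431 to 72825 in CM. The fibroblast and mesenchyme genes peaked in CP, where Tgfbr2 and Tgfbr3 also had their highest signal. The part of these cell types in the receptor values was not tested.

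**Figure D2:**
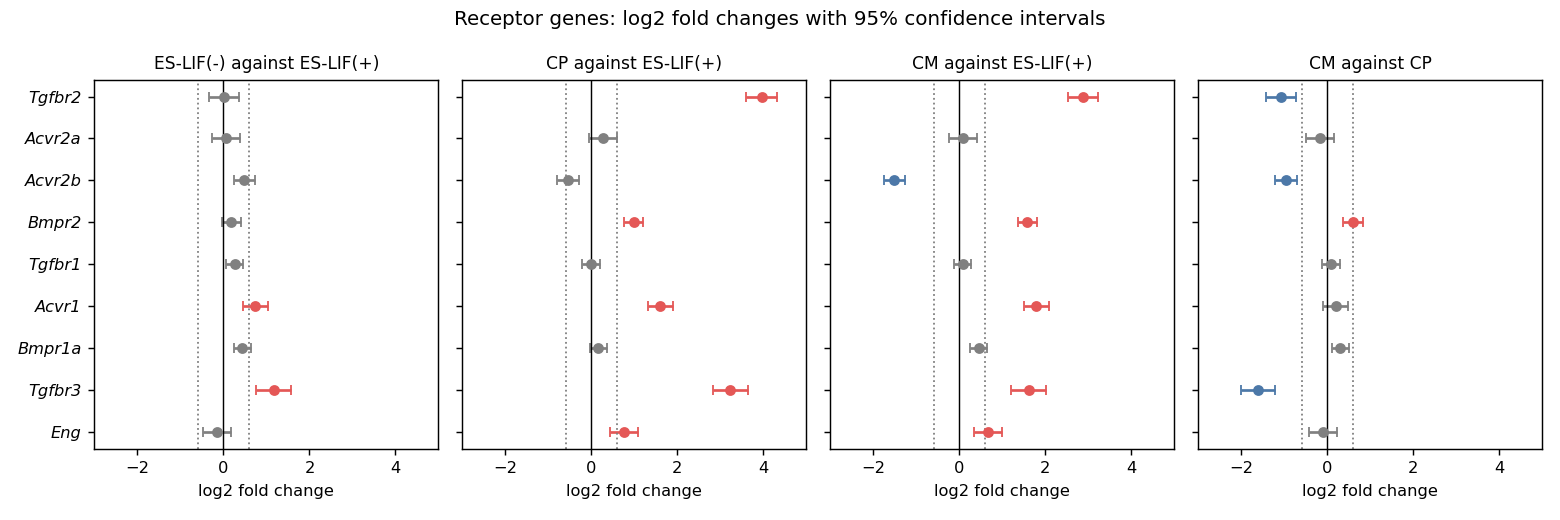
Log2 fold change of the leading probe set of each receptor gene in 4 comparisons, with 95% confidence intervals from limma. Red points were called higher, blue points lower, grey points were not called, and dotted lines mark 1.5-fold in either direction. In CM against CP, Tgfbr2 (-1.08), Acvr2b (-0.96) and Tgfbr3 (-1.61) were lower and Bmpr2 (0.59) was higher.

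In CM against CP, 3 of the 9 receptor genes were lower, Tgfbr2, Tgfbr3 and Acvr2b, where 10.4% of all genes were. Bmpr2 alone was higher, 1 of the 9, where 9.04% of all genes were, so that this count is near that share. As given above, the Bmpr2 difference sat just above the fold threshold, and no other Bmpr2 probe set was called between CM and CP. The median log2 difference was -0.10 for the 9 and -0.04 for all genes. Tgfbr2 and Tgfbr3 in CM nevertheless stood above ES-LIF(+), whereas Acvr2b stood below it. Acvr1, Eng, Tgfbr1 and Acvr2a differed between CP and CM by log2 values from -0.18 to 0.19, none of which passed, and Bmpr1a by 0.30 (limma, adjusted p = 0.0241), inside the fold threshold.

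LIF withdrawal alone moved few of them. In ES-LIF(-) against ES-LIF(+), 2 of 9 were higher, Acvr1 and Tgfbr3, where 4% of all genes were, and 0 were lower, where 3.68% were. As given above, neither increase was shared by another probe set of its gene, and averaged over probe sets it was 0.19 for Acvr1 (adjusted p = 0.313) and 0.22 for Tgfbr3 (adjusted p = 0.388). Tgfbr2, Bmpr2 and Eng, which rose later, stood at 0.01, 0.18 and -0.14 at this stage.

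With ES-LIF(-) as the base, which shares the CP and CM arrays with the comparisons above, 5 of 9 were higher in CP, where 18.2% of all genes were, and 1, Acvr2b, was lower, where 14.5% were. In CM, 4 of 9 were higher, where 24.2% of all genes were, and 1, again Acvr2b, was lower, where 24.4% were. Tgfbr2 stood at 3.95 and 2.87, Bmpr2 at 0.80 and 1.40, Acvr1 at 0.86 and 1.05, Eng at 0.90 and 0.80 and Acvr2b at -1.04 and -2.00 on the log2 scale in CP and CM. The leading probe set of Tgfbr3 was higher in CP, by 2.06 (limma, adjusted p = 5.28e-07), and not called in CM, whereas 1425620_at was called higher in both CP (2.25, adjusted p = 1.19e-06) and CM (1.65, adjusted p = 1.27e-05), and so was the mean of both in CM (1.05, adjusted p = 2.11e-05). The lower Acvr2b in CP rests on its leading probe set, since 1439856_at stood at -0.12 (adjusted p = 0.531) and 1440525_at was higher. In CM 1439856_at was lower as well (-1.07, adjusted p = 1.08e-05). Both dimmer Tgfbr1 probe sets were called higher against ES-LIF(-), by 1.80 to 2.16 in CP and 2.28 to 2.29 in CM.

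**Figure D3:**
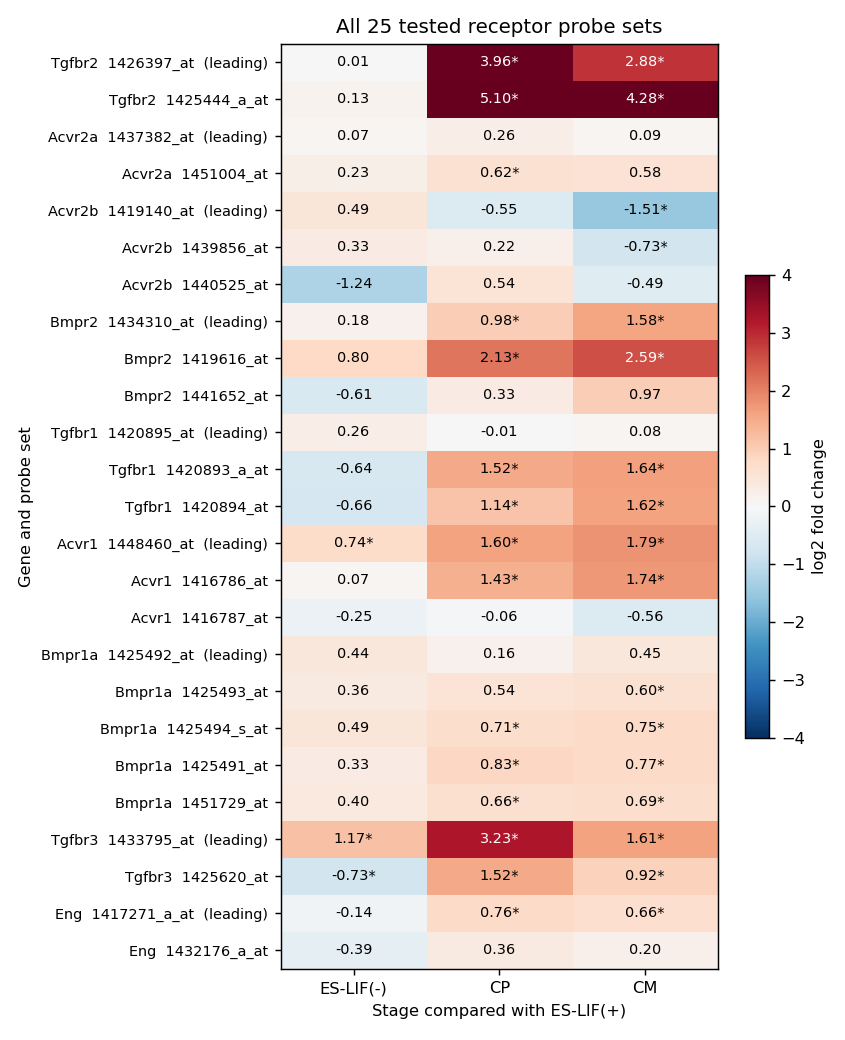
Log2 fold change against ES-LIF(+) of all 25 tested receptor probe sets, as differences of 3-array means. Color and printed value give the same number, with the color scale ending at 4 in either direction, and an asterisk marks a call. In CP 15 of the 25 were called higher, beside 19.3% of all tested probe sets, and in CM 15 higher and 2 lower, beside 26.2% and 21.6%.

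Of the 25 tested probe sets, 15 were called higher in CP against ES-LIF(+), where 19.3% of all tested probe sets were, and 0 lower, where 11.6% were. In CM 15 were higher, where 26.2% were, and 2 lower, where 21.6% were. Those called higher at both stages include 1425444_a_at of Tgfbr2 and 1419616_at of Bmpr2, which passed the filter through CP and CM samples alone. Of the 18 probe sets that do not lead a gene, 2 were not tested, 10 were higher in CP and 10 in CM, and 1 was lower in CM. The share among the non-leading probe sets of all genes was not computed. Each gene except Acvr2b had at least 1 probe set called higher in CP. The share of all genes with at least 1 such probe set was not computed, and a gene with more probe sets has more chances of a call. Probe sets of 1 gene share their RNA samples and are not replicates.

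The remaining receptors of the family were few on these arrays. Of 5 other receptor genes, Acvrl1 (ALK1) and Acvr1c (ALK7) did not pass the filter. Acvr1b (ALK4), the activin type I receptor, had a mean signal of 990 ± 98 (SD, n = 3) in ES-LIF(+), 876 ± 72 in CP and 989 ± 86 in CM, and was not called. Bmpr1b (ALK6) read 133, 157 and 185 in ES-LIF(+) and 87, 66 and 88 in CM, a log2 difference of -0.86 (limma, adjusted p = 0.0136) that ends below the array median. Amhr2, the anti-Müllerian hormone receptor, was lower in CP (-0.70, adjusted p = 0.00675) and CM (-0.95, adjusted p = 0.000448), on a probe set of a type that can bind other transcripts. None of the 3 tested genes rose.

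Membrane co-receptors other than Tgfbr3 and Eng moved in both directions. Tdgf1 (Cripto), the Nodal co-receptor that is also counted among the pluripotency genes, had a mean signal of 10526 in ES-LIF(+), 9899 in ES-LIF(-), 5517 in CP and 2479 in CM, with log2 differences of -0.93 in CP (limma, adjusted p = 1.12e-06) and -2.08 in CM (adjusted p = 7.57e-11). In CM it was thus lower together with Acvr2b, a receptor it works with in Nodal signaling. Its relative Cfc1 (Cryptic) was higher in CP (0.62, adjusted p = 0.0285) and CM (0.90, adjusted p = 0.00224). Bambi, a pseudoreceptor without a kinase that dampens signaling, read 354, 474 and 449 in ES-LIF(+), 445, 364 and 372 in CP and 1220, 1310 and 1340 in CM. It was 1.57 higher in CM than in ES-LIF(+) (adjusted p = 7.81e-08) and stood at -0.10 in CP (adjusted p = 0.551).

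The repulsive guidance molecules are BMP co-receptors. Rgma rose from 60 to 91 in ES-LIF(+), below the array medians, to 243 to 263 in CP (limma, adjusted p = 1.31e-05) and 432 to 488 in CM (adjusted p = 7.85e-08), at least 2.22-fold and 3.94-fold higher against the medians of the ES-LIF(+) arrays. Only CP and CM samples brought Rgma through the filter on low signal, so that it could not come out lower there. Rgmb was higher in CP (0.67, adjusted p = 0.00396) and stood at 0.39 in CM (adjusted p = 0.0579). Of the 5 tested co-receptors in this list, 3 were higher and 1 lower in CP, where 18.7% and 13.3% of all genes were, and 3 were higher and 1 lower in CM, where 25.7% and 23.9% were.

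**Figure D4:**
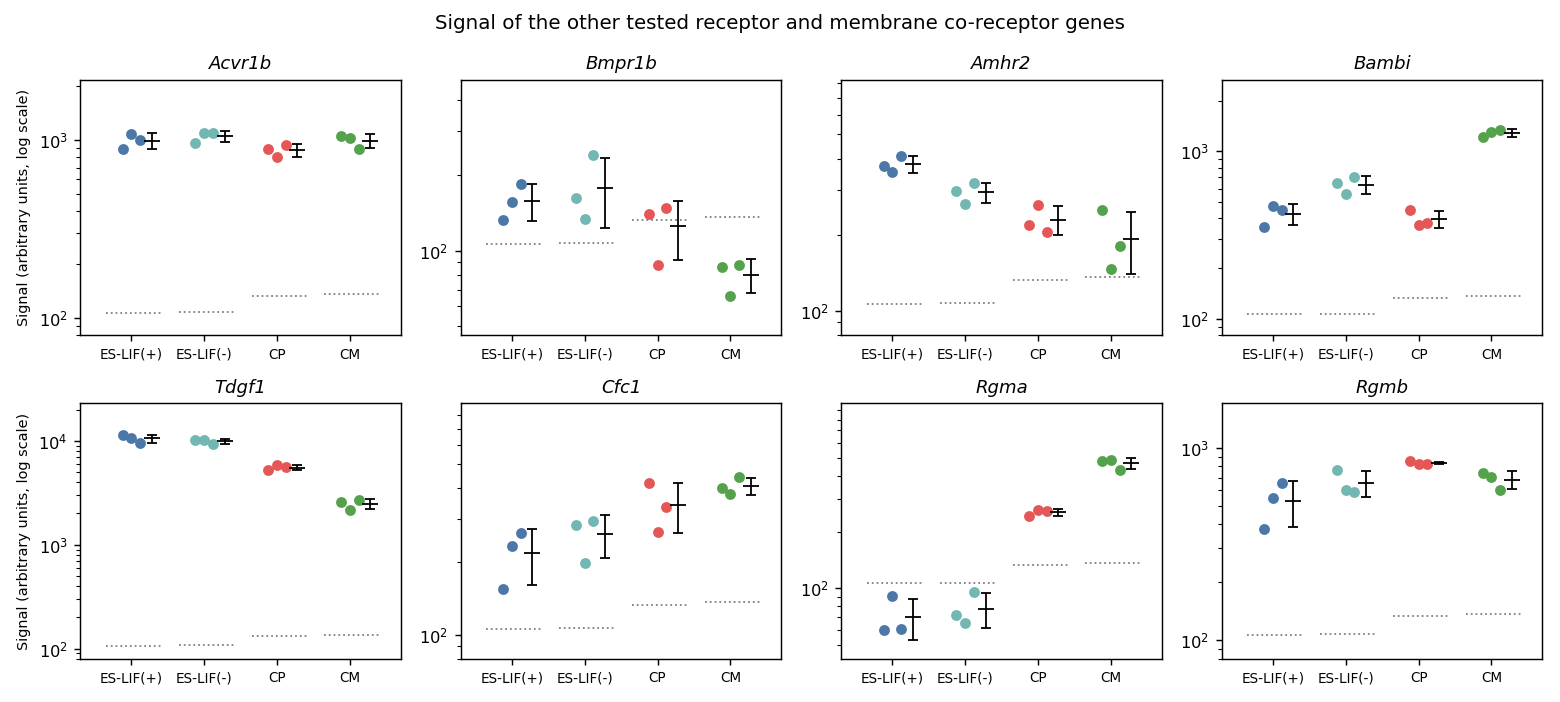
Signal (arbitrary units, log axis) of 3 other receptors and 5 membrane co-receptors on the 3 arrays of each stage, with mean and SD in black and the mean array median dotted. Tdgf1 falls from a mean of 10526 in ES-LIF(+) to 2479 in CM, and Bambi lies at 1220 to 1340 in CM, above every other stage.

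Beyond the membrane, the counts of the other pathway lists stand beside 18.7% higher and 13.3% lower of all genes in CP and 25.7% and 23.9% in CM. Of 18 tested ligands, 6 were higher and 2 lower in CP and 11 higher and 4 lower in CM, with Tgfb3 and Inhba, the activin A subunit, among the higher ones. The ligand list also holds the Nodal inhibitors Lefty1 and Lefty2, which are not counted with the antagonists below. Both were lower in CM (log2 differences -2.06 and -1.37), and in CP Lefty2 was higher (0.81) and Lefty1 was not called (0.55). Tgfb3 was below the array median on all ES-LIF(+) arrays and at least 5.43-fold higher in CP and 7.62-fold higher in CM against those medians. Inhba, above the median on 1 ES-LIF(+) array, had a mean signal of 86.5 there, 1210 in CP and 3209 in CM. Of 13 secreted ligand-binding proteins named on the array, 11 passed the filter. Of these 11, 10 were higher in CP and 11 in CM and 0 were lower. They include the latent TGFβ binding proteins Ltbp1, Ltbp2 and Ltbp3, which store ligand in the matrix, and Dcn, also listed among the mesenchyme markers. Of the other 7, antagonists that trap ligand, 6 were higher in CP and 7 in CM. Grem1, a BMP antagonist below the array median in ES-LIF(+), was at least 13.0-fold higher in CP and 8.76-fold in CM against those medians. Some of the 11, Ltbp2, Dcn and Grem1 among them, were above the median on no ES-LIF(+) array and passed the filter through other stages. A lower call was hardly open to such genes, so that the count of 0 lower says little about them. The same holds for Tgfb3. Of 7 SMADs, 2 were higher in CP and 4 in CM and 0 were lower, and the inhibitory Smad6 stood at 0.94 in CP and 2.91 in CM on the log2 scale. Of 15 receptor-binding adaptors and regulators, 3 were higher in CP and 6 in CM, with 1 lower in CM. Pmepa1, a target that restrains TGFβ signaling, stood at 2.66 and 2.32, and Dab2, an endocytic adaptor of TGFβ receptors, at 2.59 and 2.63. Of 14 target genes, 7 were higher and 1 lower at each stage, including Col1a1, a collagen chain also listed among the mesenchyme markers (6.12 and 5.77), and Tagln in CM (3.65), also listed for smooth muscle. Ltbp1 was higher at both stages and is counted both here and among the ligand-binding proteins. The medians of these lists in CM against ES-LIF(+) were 1.03 for ligands, 2.37 for ligand-binding proteins, 0.65 for SMADs, 0.17 for adaptors and 0.97 for targets, beside 0.06 for all genes.

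For the 7 receptor genes that passed the F test, the genes with the most similar course over the 12 arrays were found by the root mean square difference of log2 signals after each gene was centred on its own mean. Nearest to Tgfbr2 were Prrx1 (0.30), Cdc42ep2 (0.32) and Serpinb6b (0.32), where the SD of Tgfbr2 itself over the arrays was 1.76. Nearest to Tgfbr3 were Dnm1 (0.23), Itm2a (0.33) and Serpinf1 (0.33), with an SD of 1.17 for Tgfbr3. Bmpr2 was followed most closely by Dusp3 (0.10), Rhoq (0.12) and Vcl (0.12), and Acvr1 by Tpm4, Yaf2 and Jun (0.17 each). Acvr2b had Mtcl1 (0.13), Ppip5k2 (0.14) and Jade3 (0.16) nearest, Bmpr1a had Gatad1 (0.08), Clasp1 (0.08) and Pard6g (0.11), and Eng had 2700081O15Rik (0.12), Sirpa (0.16) and Stau1 (0.16). The 12 points share arrays and fall into 4 stages, so that these are descriptions of likeness.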

How the data were processed

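Gene expression was measured in total RNA on 12 Affymetrix mouse arrays, with 3 replicates of every stage, grouped by the sample titles. The deposited intensity values are linear signals that the authors made with MAS 5.0 and scaled, and they are relative. That the 3 arrays of a stage were independently sampled is the paper's statement, and what the replicate numbers stand for is not given. Scan dates were not given in the sources used here. The samples fall into 3 runs of deposit numbers, 2 of which hold all stages and 1 all but CP, and what the runs stand for is not given. Same-numbered ES-LIF(+), ES-LIF(-) and CM samples lie in the same run. The number of arrays limits the precision.

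From these, 64 control probe sets were removed, and log2(signal + 16) was tested for the 26083 probe sets above the array median on at least 3 of 12 arrays. The authors' filter by detection flags was not used here. Folds of dim probe sets are understated by the added 16. Of 45037 probe sets, 34945 name 1 gene, 932 several and 9160 none. The probe set with the brightest mean stands for a gene, and 13145 of 18193 genes were tested. One linear model of all 12 arrays in limma 3.58.1 (R 4.3.3; lmFit, contrasts.fit, eBayes with an intensity trend) gave an F test and 6 comparisons, with Benjamini-Hochberg adjustment over all tested probe sets. Calls were made at 0.05 with a fold above 1.5. Adjusted p values are from this model, which was tested on simulated data, or from the same model refitted under the alternative named beside them. SE are limma's standard errors, and SD are over 3 arrays.

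Genes named were all receptors, all other receptors and membrane co-receptors listed, and from each further list at most 2 called genes with the largest change in CP and 2 in CM, besides the 3 genes most like each receptor. Globins, Lefty1 and Lefty2 were named after their values were seen. Ltbp2 and Ltbp3 were also named outside this rule, where the ligand-binding list was split by hand into Ltbp1, Ltbp2, Ltbp3 and Dcn and the other 7. Members and lists were chosen with earlier results of these data known. Alternatives were other pseudocounts, scalings, filters, fold thresholds, choices of probe set, model forms, a block for replicate number, and omission of single arrays. A block for the run of deposit numbers was added after seeing the data.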

Additional observations from a re-analysis of the deposited data

How the results depend on the processing

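Of the single receptor values recomputed under the alternatives, 1354 kept their call or stayed uncalled, 13 newly passed, 27 no longer passed and 4 reversed. A change of sign was counted as a reversal only if the value was called before or after it. Median centring takes off 0.28 in CP and 0.32 in CM against ES-LIF(+), and so changed the sign of small values that were not called. Among them were the leading probe sets of Bmpr1a in CP (0.16 before centring) and of Tgfbr1 (0.08) and Acvr2a (0.09) in CM. All 4 reversals with a call before or after came from averaging a gene's probe sets. Tgfbr1 went from -0.01 to 0.88 in CP against ES-LIF(+). Against ES-LIF(-) it went from -0.27 to 1.23 in CP and from -0.19 to 1.46 in CM, and Acvr2b went from -1.04 to 0.21 in CP. The probe sets of these genes differ, as reported above. Under the same averaging Tgfbr1 was called higher in CP and CM against ES-LIF(+), and Eng was called in neither. Receptor genes higher in CM against CP numbered 0 with a pseudocount of 64, median centring, a 2-fold threshold or averaged probe sets, 2 without a fold threshold, and 0 to 1 when single arrays were left out. The 0 lower in CP against ES-LIF(+) became 1 (Acvr2b) with median centring, quantile normalization or no fold threshold, and was 0 to 1 when single arrays were left out. With a 2-fold threshold, 3 were higher in CP against ES-LIF(+), 1 in ES-LIF(-) against ES-LIF(+) and 2 in CP against ES-LIF(-). The 2 higher in ES-LIF(-) against ES-LIF(+) became 1 when all 12 arrays had to exceed the median, which drops Tgfbr3, 4 without a fold threshold and 0 with averaged probe sets. The 1 lower in CP against ES-LIF(-) became 3 without a fold threshold and 0 with averaged probe sets. Under median centring Bmpr2 in CP against ES-LIF(-) fell inside the threshold (0.53), as did Eng in CM against ES-LIF(-) (0.50). Where no cause is named, the cause was not tested.

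Replicate numbers do not pair the samples: deviations of same-numbered samples correlated by -0.05 to 0.10. With a replicate block, 5 receptor genes were still higher in CP and in CM against ES-LIF(+), 8 in place of 7 passed the F test, and every other count was equal. Runs of neighboring deposit numbers, which place the CP samples differently from the replicate numbers, gave the same range of correlations between stages, and as a block (chosen after seeing the data) the same counts. Signals near the array median, as for Tgfbr3 in ES-LIF(+), limit the precision of its folds.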
